A study of Mus musculus with 15 samples.

Results

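Choroid plexus epithelium genes were examined in RNA-Seq data from the brains of E16.5 mouse embryos. The set comprised 7 genes that serve as markers of this epithelium, namely *Ttr*, *Folr1*, *Kl*, *Aqp1*, *Clic6*, *Sostdc1*, and *Slc4a5*. The genes were found by matching the Ensembl identifiers of the deposited table to mouse gene symbols, and 7 of 7 were present among 19475 genes. The rule that names them uses no measured value of these samples, but the genes were chosen with earlier results of these data known.

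The choroid plexus is a folded sheet of epithelial cells that hangs into the brain ventricles and secretes the cerebrospinal fluid. Its cells arise at the dorsal midline of the neural tube, rest on a stroma with fenestrated vessels, and carry ions, water, vitamins, and hormones between blood and fluid. *Ttr* encodes transthyretin, a carrier of thyroxine and retinol-binding protein and the best known transcript of this epithelium.

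The samples were 5 wild-type (WT), 5 *Tbr1* +/K228E (hetero), and 5 *Tbr1* K228E/K228E (homo) embryos, all of the C57BL/6J strain, with 3 females (replicates 1 to 3) and 2 males (replicates 4 and 5) per genotype. The mutant mice carried a knock-in of K228E in exon 1 of *Tbr1*, which encodes a transcription factor of cortical neurons, and the neomycin cassette of the allele had been removed with protamine-Cre, so that the mutation was in every cell and was not restricted to a tissue. The sample labels name the tissue as brain and the study's text names it as forebrain, and the labels give no litters, so that p-values measure the spread between these samples. The comparison asks whether levels of the choroid plexus genes differ with the *Tbr1* genotype. Values are normalized read counts, that is, estimated reads per gene divided by a size factor of the embryo. In bulk samples, fewer cells of a type and less RNA per cell cannot be told apart.

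*Tbr1* itself followed the labels, with a mean normalized read count (± SD of 5 embryos) of 3537 ± 1049 for WT, 6269 ± 1532 for hetero, and 11366 ± 3160 for homo embryos. Each embryo summed to 30.5 to 31.8 M over all genes after scaling, where M stands for megareads. In 2 embryos nearly all of the choroid plexus genes were very low, WT replicate 3 and *Tbr1* K228E/K228E replicate 4. Values without them stand beside each comparison of genotypes, though not for all 7 genes between *Tbr1* K228E/K228E and WT embryos. The sum of 17 Hox genes, markers of hindbrain and spinal cord, ranged from 3.00 to 3963 normalized read counts over the embryos, with both extremes in *Tbr1* +/K228E embryos. The sum of 6 forebrain genes, led by *Neurod6*, a gene of cortical neurons, ranged from 8323 to 21169.9, so that forebrain tissue was present in every embryo.

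Among the secreted products, *Ttr* (ENSMUSG00000061808, GRCm38 chromosome 18, 20665280 to 20674321, plus strand) had by far the highest level. In WT embryos its normalized read count was 19278, 12898, 314, 2361, and 10024 in replicates 1 to 5. In *Tbr1* +/K228E embryos it was 22879, 20144, 16394, 4775, and 9306. In *Tbr1* K228E/K228E embryos it was 12734, 11980.5, 4845, 29.2, and 17508. The 3 genotypes overlapped over most of their range, and WT replicate 3 and *Tbr1* K228E/K228E replicate 4 were the lowest of all. The highest embryo exceeded the lowest 784-fold. The genotype means (± SD, n = 5 each) were 8975 ± 7768 for WT, 14699.7 ± 7533 for hetero, and 9419 ± 6930 for homo embryos, so that the SD within a genotype was larger than any difference between means.

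*Sostdc1* (ENSMUSG00000036169, chromosome 12, 36314139 to 36318452, plus strand) encodes a secreted antagonist of BMP and Wnt signaling. The 5 WT embryos had normalized read counts of 198, 118, 52.1, 63.0, and 114. It was 184, 211, 156, 62.6, and 126 in *Tbr1* +/K228E embryos. It was 141, 135, 67.7, 53.4, and 158 in *Tbr1* K228E/K228E embryos. The embryos that were low for *Ttr* were again the lowest, but *Sostdc1* was still above 50 in each of them and its highest value exceeded its lowest by only 4.06-fold.

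Among the proteins at the cell membrane, *Folr1* (ENSMUSG00000001827, chromosome 7, 101858331 to 101870788, minus strand) encodes the folate receptor through which the epithelium takes folate into the cerebrospinal fluid. In WT embryos the normalized read count was 231, 115, 14.4, 48.0, and 121. It was 253, 249, 222, 43.9, and 149 in *Tbr1* +/K228E embryos. It was 120, 186, 67.4, 14.9, and 154 in *Tbr1* K228E/K228E embryos. The 3 highest embryos were *Tbr1* +/K228E replicates 1 and 2 and WT replicate 1, and the genotypes overlapped. The genotype means (± SD, n = 5 each) were 106 ± 83.1 for WT, 183 ± 88.4 for hetero, and 109 ± 68.4 for homo embryos.

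*Kl* (ENSMUSG00000058488, chromosome 5, 150952607 to 150993817, plus strand) encodes klotho, a membrane protein and co-receptor for a fibroblast growth factor. The WT values, in normalized read counts, were 44.4, 61.0, 32.7, 55.8, and 42.0. It was 62.0, 61.5, 58.6, 30.5, and 26.6 in *Tbr1* +/K228E embryos. It was 41.0, 51.0, 25.4, 45.6, and 63.2 in *Tbr1* K228E/K228E embryos. WT replicate 3 was the lowest WT embryo for *Kl* too, but *Tbr1* K228E/K228E replicate 4, with the least *Ttr*, had the middle *Kl* value of its genotype. In that embryo the normalized read count of *Kl* (45.6) was higher than that of *Ttr* (29.2). The highest *Kl* value exceeded the lowest by 2.49-fold.

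Among the channels and transporters, *Aqp1* (ENSMUSG00000004655, chromosome 6, 55336432 to 55348555, plus strand) encodes the water channel of the ventricle-facing membrane. WT replicates 1 to 5 had normalized read counts of 561, 268, 21.8, 103, and 311. It was 477, 389, 327, 121, and 249 in *Tbr1* +/K228E embryos. It was 287, 229, 89.1, 13.0, and 363 in *Tbr1* K228E/K228E embryos. The order of the embryos was close to that of *Ttr*, and the highest exceeded the lowest by 43.1-fold.

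*Clic6* (ENSMUSG00000022949, chromosome 16, 92485736 to 92541243, plus strand) belongs to the chloride intracellular channel family. Among WT embryos the normalized read count was 547, 408, 36.5, 103, and 305. It was 590, 633, 474, 166, and 333 in *Tbr1* +/K228E embryos. It was 363, 360, 112, 37.9, and 534 in *Tbr1* K228E/K228E embryos. The lowest WT and the lowest *Tbr1* K228E/K228E embryo lay close together, and the other embryos of these genotypes lay within the same range.

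*Slc4a5* (ENSMUSG00000068323, chromosome 6, 83219828 to 83304945, plus strand) encodes a sodium bicarbonate cotransporter. Its normalized read count was 157, 77.6, 8.01, 57.0, and 69.6 in WT embryos. It was 201, 113, 70.8, 34.9, and 59.3 in *Tbr1* +/K228E embryos. It was 74.6, 137, 69.7, 22.6, and 99.0 in *Tbr1* K228E/K228E embryos. WT replicate 3 was lowest for *Slc4a5*, below *Tbr1* K228E/K228E replicate 4, which is the reverse of their order for *Ttr*. No exon of another gene in the GENCODE annotation overlapped an exon of any of the 7 genes, so that the unstranded library does not mix their reads with those of an antisense gene.

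**Figure D1:**
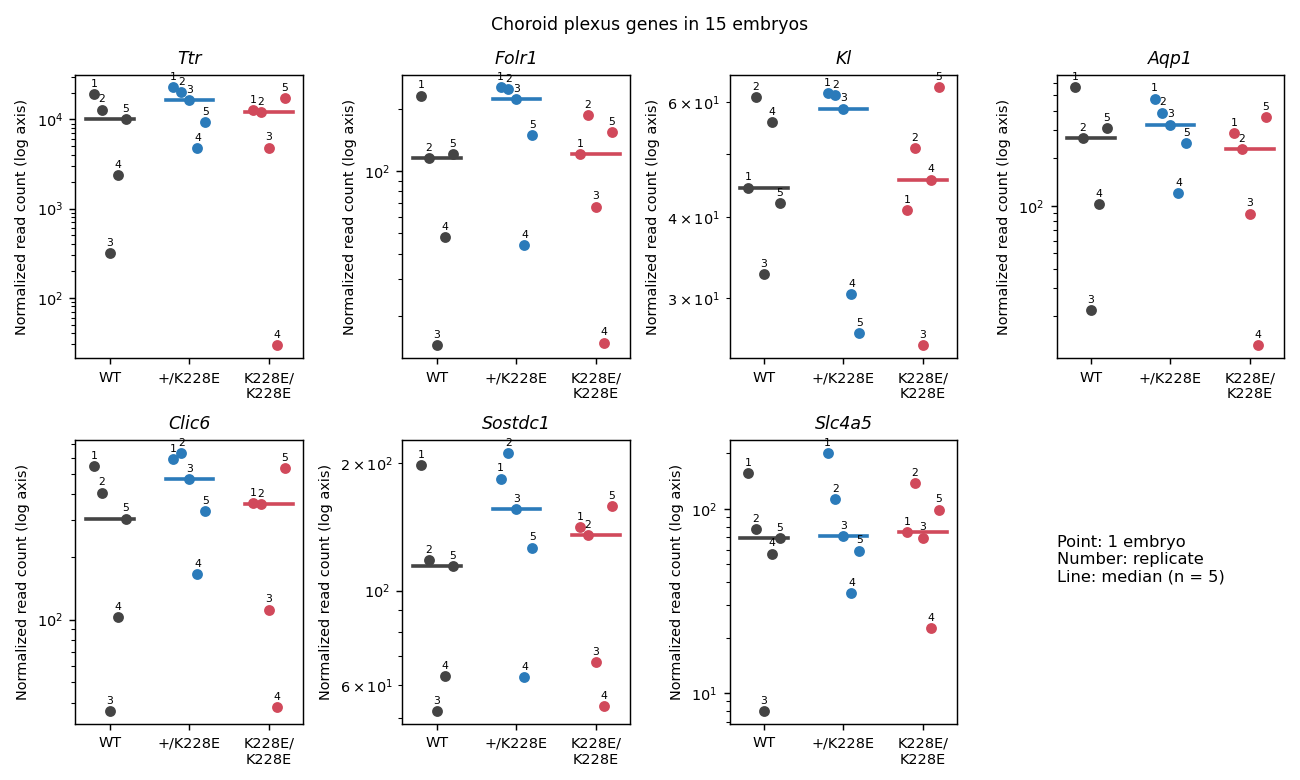
Normalized read counts of the 7 choroid plexus genes, on log axes with a range of their own in each panel, by genotype. Each point is 1 embryo with its replicate number and each line is the median of 5 embryos, and WT replicate 3 lies lowest of its genotype in every panel and *Tbr1* K228E/K228E replicate 4 in every panel but that of *Kl*.

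Levels were also compared between the genes, per kilobase of exon, since a longer transcript yields more reads. On this scale the mean over 15 embryos was 9301 for *Ttr*, 96.6 for *Aqp1*, 85.2 for *Clic6*, 68.9 for *Sostdc1*, 57.7 for *Folr1*, 14.4 for *Slc4a5*, and 5.01 normalized read counts per kilobase for *Kl*. *Ttr* was above *Aqp1* in 15 of 15 embryos and *Folr1* above *Slc4a5* in 15 of 15. *Slc4a5* was above *Kl* in 13 of 15. The neighbors *Aqp1*, *Clic6*, *Sostdc1*, and *Folr1* were less clearly ordered. *Aqp1* exceeded *Clic6* in 10 of 15 embryos, *Clic6* exceeded *Sostdc1* in 11, and *Sostdc1* exceeded *Folr1* in 12.

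None of the 7 genes was called in any comparison of genotypes. Between *Tbr1* +/K228E and WT embryos, the log2 fold changes of log2(value + 1) were 1.50 for *Ttr* (standard error 1.51), 1.05 for *Folr1*, 1.04 for *Clic6*, 0.81 for *Aqp1*, 0.59 for *Slc4a5*, 0.49 for *Sostdc1*, and -0.038 for *Kl*, and each had an adjusted p of 0.999 in limma with Benjamini–Hochberg correction over 16507 genes. The 95% interval for *Ttr* ran from -1.71 to 4.70 and that for *Kl* from -0.65 to 0.58, so that differences of several fold in either direction remain within the interval for *Ttr*. In this comparison 0% of all tested genes were called. At an unadjusted p under 0.05 there were 0 of 7 choroid plexus genes, against 1.79% of all tested genes, and 0 of 7 had no overlap between embryos, against 0.26%. Of the 7 genes, 6 had positive estimates, with a median of 0.81 beside a median of -0.0021 over all tested genes. Without WT replicate 3 the estimates were 0.54 for *Ttr*, 0.48 for *Folr1*, 0.45 for *Clic6*, 0.26 for *Sostdc1*, 0.10 for *Aqp1*, -0.053 for *Slc4a5*, and -0.16 for *Kl*, with 0 of 7 genes called. In these bulk samples the 6 genes rest on the same embryos and are not separate observations. The meningeal genes described further on also had mostly positive estimates, 11 of 12, with a median of 0.48.

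Between *Tbr1* K228E/K228E and WT embryos, the estimates lay on both sides of 0. The log2 fold changes were 0.39 for *Slc4a5*, 0.13 for *Folr1*, 0.063 for *Sostdc1*, 0.040 for *Clic6*, -0.086 for *Kl*, -0.38 for *Aqp1*, and -0.45 for *Ttr* (95% interval -3.65 to 2.76), with an adjusted p of 1.00 for each (limma with Benjamini–Hochberg correction). The count was 0 of 7 called, against 0.127% of all tested genes. It was also 0 of 7 at an unadjusted p under 0.05, against 3.23%, and 0 of 7 without overlap, against 0.594%. Without the 2 embryos of lowest *Ttr*, the estimate for *Ttr* turned from -0.45 to 0.28, that for *Slc4a5* was 0.14 and that for *Kl* -0.22, and 0 of 7 genes were called. Those of the other genes in that fit are not given. Without WT replicate 3 alone, *Folr1* turned to -0.45, *Clic6* to -0.55, *Sostdc1* to -0.16, and *Slc4a5* to -0.26. Without *Tbr1* K228E/K228E replicate 4 alone, *Ttr* turned to 1.24 and *Aqp1* to 0.41.

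Between *Tbr1* K228E/K228E and *Tbr1* +/K228E embryos, all 7 estimates were negative and none was called. They were -1.95 for *Ttr* (95% interval -5.15 to 1.26), -1.19 for *Aqp1*, -1.001 for *Clic6*, -0.93 for *Folr1*, -0.42 for *Sostdc1*, -0.21 for *Slc4a5*, and -0.048 for *Kl*, with an adjusted p of 0.996 for each (limma with Benjamini–Hochberg correction). The counts were 0 of 7 called against 0.0788% of all tested genes, 0 of 7 at an unadjusted p under 0.05 against 3.3%, and 0 of 7 without overlap against 0.878%. Without the 2 embryos of lowest *Ttr*, the estimates were -0.26 for *Ttr*, -0.40 for *Aqp1*, -0.41 for *Clic6*, -0.33 for *Folr1*, -0.19 for *Sostdc1*, and -0.066 for *Kl*, and that for *Slc4a5* turned to 0.19. Two-sided exact permutation tests of 5 against 5 embryos, of which the smallest possible p is 0.00794, gave p between 0.222 (*Folr1*, *Tbr1* +/K228E against WT) and 0.944 (*Clic6*, *Tbr1* K228E/K228E against WT) over 21 tests. With sex in the same fit, the log2 differences of 6 males minus 9 females were -1.67 for *Ttr* and -0.15 for *Kl*, the extremes of the 7 genes, with adjusted p of 0.606 and 0.849 (limma with Benjamini–Hochberg correction).

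**Figure D2:**
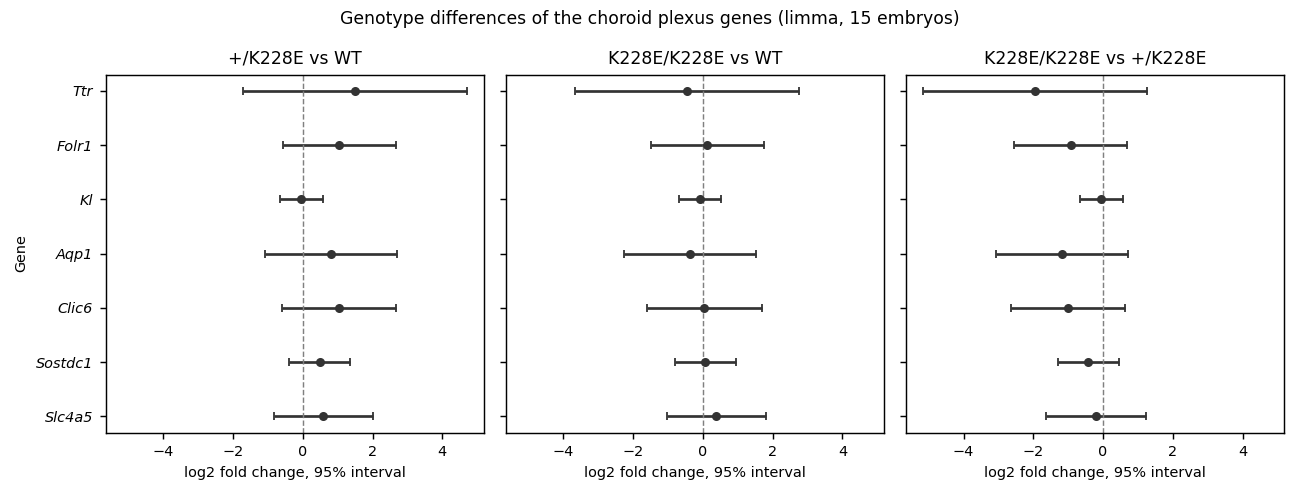
Log2 fold changes of the 7 choroid plexus genes in the 3 comparisons of genotypes, with 95% intervals from limma. Every interval includes 0, and the interval of *Ttr* is the widest and that of *Kl* the narrowest.

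Embryos of the same genotype differed widely. The pooled SD of the log2 value within genotypes was 2.68 for *Ttr*, which ranked 39 of 16507 tested genes. It was 1.59 for *Aqp1* (rank 207), 1.37 for *Clic6* (rank 286), 1.35 for *Folr1* (rank 295), and 1.18 for *Slc4a5* (rank 386). *Sostdc1* followed with 0.72 (rank 1077) and *Kl* with 0.48 (rank 2318). The median over all tested genes was 0.15. The SD of *Ttr* was 1.62 without *Tbr1* K228E/K228E replicate 4, and that of *Slc4a5* was 0.88 without WT replicate 3.

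The other genes, with *Kl* as the weakest, went up and down with *Ttr* from embryo to embryo. With the mean of each genotype removed, *Aqp1* correlated with *Ttr* over 15 embryos with Pearson's r = 0.961 (two-sided permutation p = 1e-05, adjusted p = 4e-05) and Spearman's rho = 0.968 (p = 1e-05, adjusted p = 6e-05). *Clic6* had r = 0.921 (permutation p = 1e-05, adjusted p = 4e-05) and rho = 0.961 (p = 1e-05, adjusted p = 6e-05). *Folr1* had r = 0.915 (permutation p = 1e-05, adjusted p = 4e-05) and rho = 0.896 (p = 4e-05, adjusted p = 0.00012). A p of 1e-05 is the smallest that the 100000 resamples can give, and the adjustment is over all 12 relations computed with *Ttr*.

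*Slc4a5* correlated with *Ttr* with r = 0.827 (permutation p = 0.00037, adjusted p = 0.000555) and rho = 0.811 (p = 0.00046, adjusted p = 0.00069). *Sostdc1* had r = 0.796 (permutation p = 6e-05, adjusted p = 0.00018) and rho = 0.900 (p = 3e-05, adjusted p = 0.00012). *Kl* had the lowest correlation, with r = 0.291 (permutation p = 0.303, adjusted p = 0.364) and rho = 0.389 (p = 0.153, adjusted p = 0.184). Without the 2 embryos farthest from the median of *Ttr*, which are the 2 low embryos, r was 0.968 for *Aqp1*, 0.980 for *Clic6*, 0.923 for *Folr1*, 0.954 for *Sostdc1*, 0.759 for *Slc4a5*, and 0.544 for *Kl*, so that the relations of these genes other than *Kl* did not rest on those embryos. The 15 pairs of genes without *Kl* had r between 0.796 (*Ttr* and *Sostdc1*) and 0.981 (*Aqp1* and *Clic6*), and the 6 pairs with *Kl* had r between 0.291 (*Ttr*) and 0.551 (*Sostdc1*). For *Kl* the relation depended on 1 embryo, since r was 0.569 (permutation p = 0.0281) without *Tbr1* K228E/K228E replicate 4. As marker genes of the epithelium, 6 of the 7 genes thus rose and fell together in these samples, whereas the relation of *Kl* with them was weaker and changed with 1 embryo.

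**Figure D3:**
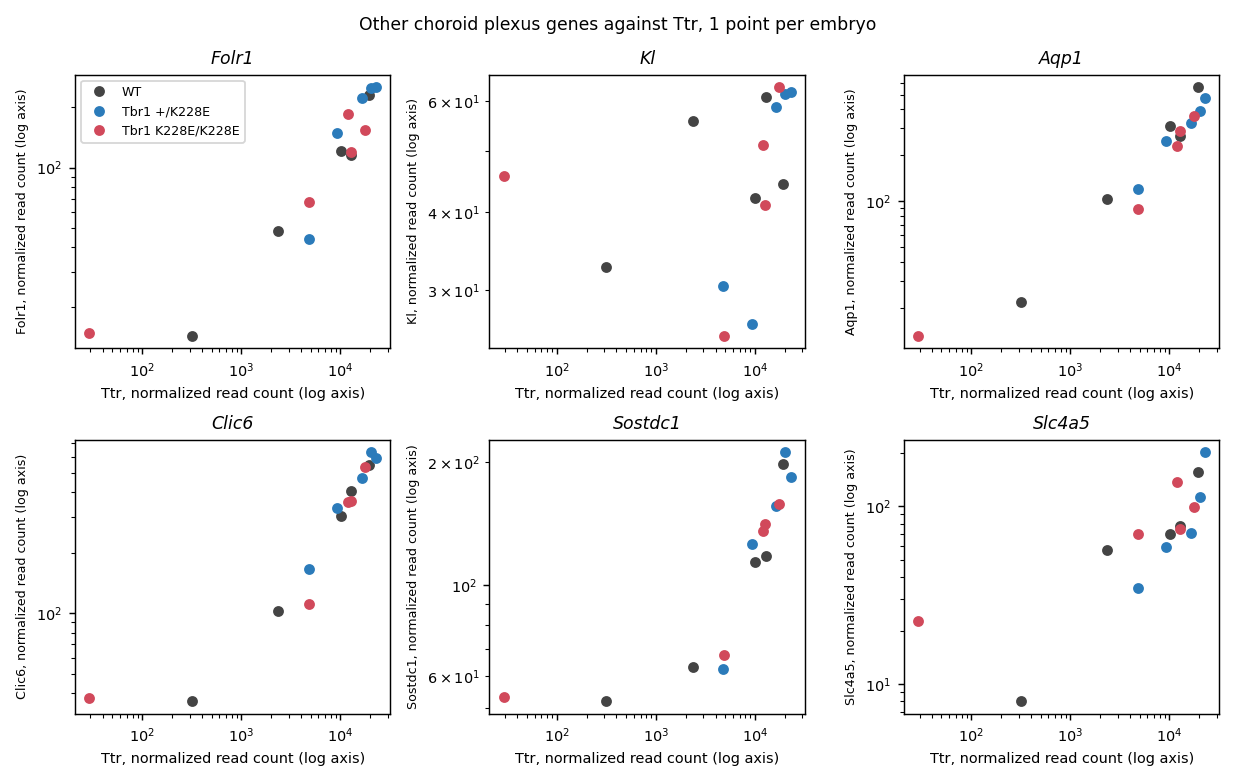
Normalized read count of the 6 other choroid plexus genes against that of *Ttr*, with log axes and 1 point per embryo colored by genotype. *Folr1*, *Aqp1*, *Clic6*, *Sostdc1*, and *Slc4a5* rise with *Ttr* (r from 0.796 to 0.961), whereas *Kl* is scattered (r = 0.291).

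The region before the start of transcription was available from RefSeq (GRCm38.p6) for 3 of the 7 genes, *Kl*, *Aqp1*, and *Slc4a5*. These sequences are shown because those of the other genes of the 7 were not available. The r with *Ttr* was 0.961 for *Aqp1*, 0.827 for *Slc4a5*, and 0.291 for *Kl*, and a link between sequence and r was not tested. Each is the stretch of 150 bases just upstream of the RefSeq start, 5′ to 3′ on the plus strand, which is the strand of the gene, at chr6:55336149-55336298 for *Aqp1*, chr6:83237225-83237374 for *Slc4a5*, and chr5:150952457-150952606 for *Kl*. The stretch of *Slc4a5* lies inside the longer gene that GENCODE annotates. Capitals mark a match to TATAAA on the opposite strand, and the sequences without capitals held no match.
Aqp1: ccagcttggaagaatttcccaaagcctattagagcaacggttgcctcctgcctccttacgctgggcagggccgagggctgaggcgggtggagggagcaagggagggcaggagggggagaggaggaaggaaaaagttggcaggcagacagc
Slc4a5: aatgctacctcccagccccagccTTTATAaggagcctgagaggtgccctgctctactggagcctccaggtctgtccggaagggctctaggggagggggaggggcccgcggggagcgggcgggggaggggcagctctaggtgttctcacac
Kl: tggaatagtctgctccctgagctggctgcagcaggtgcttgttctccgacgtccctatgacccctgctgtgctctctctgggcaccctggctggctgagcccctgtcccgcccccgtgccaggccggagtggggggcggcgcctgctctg

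In the full 250 bases upstream of the start, 4 motifs were searched on both strands. These were TAATCC, of the kind that Otx homeodomain proteins bind, the TATA box letters TATAAA, the CCAAT box, and the forkhead letters GTAAACA, and none of them contains another. The match of *Slc4a5*, 127 bases upstream of the start, was the only one in the 3 genes. Among 32851 RefSeq windows of the same length, 6.25% held TAATCC, 12.4% held TATAAA, 33.8% held CCAAT, and 3.17% held GTAAACA. The G and C content of the windows was 62.0% for *Aqp1*, 62.8% for *Slc4a5*, and 66.8% for *Kl*.

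A wider list of 57 genes of the choroid plexus, all of which were measured and tested, was described beside the 7 genes. It held 10 secreted proteins, 16 ion channels and transporters, 8 junction and keratin genes, 12 other epithelial genes, and 11 regulators. Not all of them followed *Ttr* over 15 embryos, since 33 had r over 0.5 with it and 7 had r below 0. Counts and medians of the list are therefore not those of the epithelium alone. Of the 57 genes, 0 were called between *Tbr1* +/K228E and WT embryos, 1 between *Tbr1* K228E/K228E and WT embryos, and 0 between the mutant genotypes. The shares called over all tested genes were 0%, 0.127%, and 0.0788%. The median log2 fold changes were 0.15, -0.10, and -0.27, beside medians of about 0 over all tested genes. Positive estimates were found for 43, 17, and 10 of the 57 genes, against 8063, 8043, and 8287 of 16507 tested genes. An unadjusted p under 0.05 was reached by 2 genes (*Hemk1* and *Col9a3*), 3 genes (*Slc4a10*, *Rdh5*, and *Trp73*), and 5 genes (*Slc4a10*, *Rdh5*, *Trp73*, *Slc39a4*, and *Cldn3*) in the 3 comparisons, against 1.79%, 3.23%, and 3.3% of all tested genes. The genotypes did not overlap in 1, 0, and 4 of the 57 genes, against 0.26%, 0.594%, and 0.878% of all tested genes. These are *Slc16a8* between *Tbr1* +/K228E and WT embryos, and *Slc4a10*, *Slc39a4*, *Rdh5*, and *Trp73* between the mutant genotypes. *Slc16a8*, *Slc39a4*, *Rdh5*, *Trp73*, *Col9a3*, and *Cldn3* were named after their values were seen. *Trp73*, a gene of the p53 family, had normalized read counts of 199 to 324 in *Tbr1* K228E/K228E and 325 to 599 in *Tbr1* +/K228E embryos (log2 fold change -0.75, adjusted p = 0.593 in limma). *Trp73* did not follow *Ttr* (r = 0.102 over 15 embryos) and was at 511 in WT replicate 3, an embryo low in *Ttr*, so that its values are not specific to the epithelium.

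The gene that was called was *Slc4a10*, which encodes a sodium bicarbonate transporter of the basolateral membrane of the epithelium and is also expressed in neurons. It lies near the mutated gene, at 62046462 to 62326730 of chromosome 2 on the plus strand, and starts 232.3 kb after the end of *Tbr1* (61802930 to 61814114). Its normalized read count was 1844, 1466, 1325, 2178, and 1813 in WT embryos. It was 1837, 1804, 1700.2, 1689, and 1688 in *Tbr1* +/K228E embryos. It was 2153, 2911, 3071, 2764, and 2772 in *Tbr1* K228E/K228E embryos. The *Tbr1* K228E/K228E embryos were the highest apart from replicate 1, which lay just below the highest WT embryo. The log2 fold change was 0.68 (standard error 0.12), with an adjusted p of 0.0318 in limma with Benjamini–Hochberg correction. The call was lost, with adjusted p from 0.0614 to 0.117 in limma, when any 1 of 8 of the 10 embryos was left out, and it was kept without WT replicate 4 or *Tbr1* K228E/K228E replicate 1. With 1 embryo fewer the log2 fold change itself ranged from 0.59 to 0.77. The call was also lost in a fit of these 2 genotypes alone (log2 fold change 0.68, adjusted p = 0.235, limma) and without the 2 embryos low in *Ttr* (0.58, adjusted p = 0.189, limma). Unlike the 6 genes that moved together, *Slc4a10* did not follow *Ttr* (r = 0.119 over 15 embryos).

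Within the wider list, the genes with the largest positive estimates between *Tbr1* +/K228E and WT embryos were *Kcne2*, a subunit of potassium channels, at 1.15, and *Tmem72*, a membrane protein of unclear function, at 1.10. The largest negative estimates there were those of *Hemk1* (-0.44) and *Prlr*, the prolactin receptor (-0.28). Between *Tbr1* K228E/K228E and WT embryos they were *Pla2g5*, a secreted phospholipase (0.79), *Car12*, a carbonic anhydrase (0.75), *Msx2*, a homeobox gene of the dorsal midline (-0.999), and *Cdh1*, E-cadherin (-0.91). Between the mutant genotypes they were *Slc4a10* (0.64), *Pla2g5* (0.59), *Kcne2* (-1.26), and *Slc13a4*, a sulfate transporter (-1.25). None of these estimates but that of *Slc4a10* against WT embryos passed the adjusted threshold. Several of these genes were near 0 in the 2 embryos low in *Ttr*. In WT replicate 3, *Kcne2* was at 11.9, *Tmem72* at 0, and *Slc13a4* at 5.96. In *Tbr1* K228E/K228E replicate 4 they were at 3.39, 0, and 7.98. Estimates of these genes without those embryos are not given.

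The wider list followed *Ttr* between embryos more often than the average gene did. As a description over 15 embryos that share their libraries, 16 of 57 genes (28.1%) had r over 0.8 with *Ttr*, beside 0.921% of 16506 tested genes, and 33 of 57 (57.9%) had r over 0.5, beside 9.91%. The 12 meningeal genes described further on had larger shares, 58.3% over 0.8 and 100% over 0.5. *Kcne2* had r = 0.989, the highest of all tested genes, and *Wfikkn2*, a secreted protease inhibitor, had 0.972. By group, r exceeded 0.8 in 4 of 10 secreted proteins, 4 of 16 channels and transporters, 3 of 8 junction and keratin genes, 4 of 12 other epithelial genes, and 1 of 11 regulators. The junction and keratin genes were *Krt8* (0.953), *Krt18* (0.937), and *Cldn2* (0.830), and the regulator was *Msx1* (0.915). *Otx2*, a homeobox gene needed for the choroid plexus that is also expressed in midbrain and other tissue, had no relation with *Ttr* past the threshold (r = 0.193, permutation p = 0.483, adjusted p = 0.483; rho = 0.321, p = 0.244, adjusted p = 0.266). Its normalized read count ranged from 353 to 1500.1 and was 588 and 799 in the 2 embryos low in *Ttr*.

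The normalized read count of *Kcne2* was 332, 194, 11.9, 44.8, and 199 in WT embryos. It was 365, 314, 259, 98.0, and 140.0 in *Tbr1* +/K228E embryos. It was 206, 241, 84.5, 3.39, and 282 in *Tbr1* K228E/K228E embryos. The 5 embryos with the least *Kcne2* were the 5 with the least *Ttr*, and they came from all 3 genotypes.

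The genes most like the 7 genes were found by their r with the mean of the 7 standardized log2 values over 15 embryos, with genotype means removed. Only tested genes with a gene symbol, other than the 7 genes, were ranked. The 10 highest of them were *Cfap126* (0.983), a gene of motile cilia, *Slco1a4* (0.976), an organic anion transporter, *Tinagl1* (0.9748), *Scara5* (0.9747), *Krt8* (0.973), *Gata6* (0.972), *Cyyr1* (0.972), *Msx1* (0.971), *Trip6* (0.967), and *Mfrp* (0.966). *Krt8*, *Msx1*, and *Mfrp* were in the wider list. The lowest were *Slc37a3* (-0.892), *Tcp11l1* (-0.867), *Ric8b* (-0.866), *Soga1* (-0.859), and *Sugp2* (-0.857). *Slco1a4* fell to normalized read counts of 5.22 and 4.28 in WT replicate 3 and *Tbr1* K228E/K228E replicate 4, beside a highest value of 152, and *Gata6* was listed at 0 in both of these embryos.

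Markers of other tissue moved with the choroid plexus genes. The 12 genes of the meninges and stroma had summed normalized read counts of 1015 to 35423 in WT, 5262 to 20503 in *Tbr1* +/K228E, and 1080 to 23908 in *Tbr1* K228E/K228E embryos, led by *Col3a1*. Their mean log2 value correlated with *Ttr* with r = 0.819 (permutation p = 0.00029, adjusted p = 0.000497) and rho = 0.889 (p = 5e-05, adjusted p = 0.00012), and r was 0.765 without the 2 embryos of lowest *Ttr*. Of the 12 genes, 7 had r over 0.8 and 12 had r over 0.5. The 2 low embryos had *Col1a1* values of 23.4 (WT replicate 3) and 16.46 (*Tbr1* K228E/K228E replicate 4), beside a highest value of 10912 in WT replicate 1. The part of the meningeal tissue in the choroid plexus results was not tested.

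The meningeal genes and the epithelial genes did not agree in every embryo. In *Tbr1* K228E/K228E replicate 3, *Col1a1* was at 22.3 and the meningeal transporter gene *Slc6a13* at 3.20, as low as in the 2 low embryos, but *Ttr* was at 4845. In WT replicate 4, *Ttr* was lower, at 2361, and *Col1a1* was at 1676 and *Slc6a13* at 306. With the mean log2 value of the 12 meningeal genes as a covariate, 0 of 7 choroid plexus genes were called in each comparison. At an unadjusted p under 0.05 there was 1, *Clic6* between *Tbr1* +/K228E and WT embryos (log2 fold change 0.69). The share of all tested genes under that p in this fit is not given, so that no result is read from the count.

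Genes of fenestrated endothelium and blood, 9 in number and led by *Hbb-bs*, had sums of 21902 to 52466 in WT, 23066 to 60139 in *Tbr1* +/K228E, and 21394 to 42087 in *Tbr1* K228E/K228E embryos. Their mean log2 value had r = 0.780 with *Ttr* (permutation p = 9e-05, adjusted p = 0.000216) and rho = 0.821 (p = 0.00028, adjusted p = 0.00048). For the mean of the 14 genes of the cortical hem and roof plate, from which the choroid plexus forms, r was 0.772 (permutation p = 0.00019, adjusted p = 0.00038) and rho was 0.879 (p = 7e-05, adjusted p = 0.00014). Only 4 of these 14 genes had r over 0.5, namely *Bmp4*, *Bmp5*, *Bmp6*, and *Bmp7* (0.687 to 0.809). The median r of the 14 genes was 0.323. The part of these genes in the result was not tested. The 14 ependymal and cilia genes had r = 0.449 (permutation p = 0.0914, adjusted p = 0.122) and rho = 0.614 (p = 0.0169, adjusted p = 0.0225), and their sums ranged from 808 to 1168.

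For Hox genes no relation with *Ttr* passed the threshold (r = 0.196, permutation p = 0.478, adjusted p = 0.483; rho = 0.268, p = 0.335, adjusted p = 0.335), and none of 14 tested Hox genes had r over 0.5. Of the 6 forebrain genes none had r over 0.5, and 5 had r below 0, the exception being *Emx2* (0.0058). Genes of the pineal gland and retina (8 measured, sums of 109 to 364) included 1 with r over 0.5, *Mitf*. Of the 4 yolk sac and liver genes tested, 2 had r over 0.5, *Apoa1* and *Trf*, and the defining liver genes *Alb* and *Afp* had means of 0.80 and 1.90 normalized read counts. *Afp* was at 16.4 in WT replicate 1 and at most 2.25 in every other embryo.

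**Figure D4:**
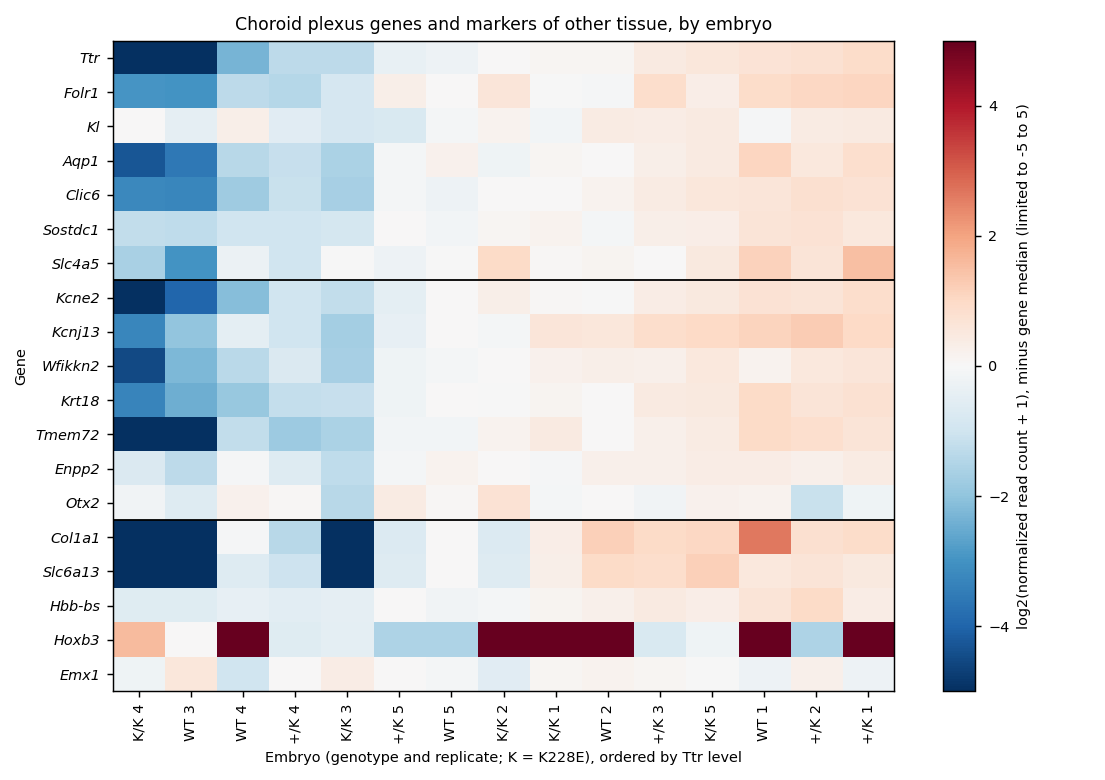
Log2(normalized read count + 1) minus the median of the gene over 15 embryos, limited to -5 to 5, for the 7 choroid plexus genes (top), 7 genes of the wider list (middle), and 5 genes of meninges, blood, hindbrain, and forebrain (bottom), with embryos ordered by *Ttr*. The leftmost 2 embryos, *Tbr1* K228E/K228E replicate 4 and WT replicate 3, are blue for most epithelial genes and for *Col1a1* and *Slc6a13*, whereas *Kl*, *Otx2*, *Hoxb3*, and *Emx1* do not follow the order.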

How the data were processed

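RNA-Seq libraries (TruSeq v2) of 15 embryos were quantified by the authors with Salmon 0.11.2 on GRCm38, imported with tximport, and divided by DESeq2 1.22.2 size factors in R 3.5.3, so that the deposited values are a normalized signal per gene and not whole read counts. At most 44.1% of values below 30 were within 0.03 of a whole multiple, so that reads were not recovered, no count model was fitted, and depth per library is unknown. Symbols were matched for 19452 of 19475 genes (GENCODE M21). Genotypes were compared with limma 3.58.1 (trend, R 4.3.3) on log2(value + 1), in 1 fit of 15 embryos, for 16507 genes with a mean of at least 5, with Benjamini–Hochberg correction and a threshold of 0.05. Log2 fold changes on this scale understate changes of low genes. The fit was tested on simulated data. Exact permutation tests and correlations used Python 3.11.15 and scipy 1.17.1. Log2 values of embryos of a genotype correlated with r between 0.963 and 0.993. The named genes are the 7 genes, *Tbr1*, *Slc4a10*, *Otx2*, called genes and the 2 largest rises and falls of the wider list per comparison, the 10 most and 5 least similar genes, and the leading genes of other marker lists. Members, lists, and tests were chosen with earlier results of these data known. The design set the adjustment of correlations over 6 relations, but it was done over all 12. 1 gene of the lists is not reported here.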

Additional observations from a re-analysis of the deposited data

How the results depend on the processing

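Of the 7 choroid plexus genes, 0 were called in every comparison under every alternative. With the Hox score as a covariate, *Kl* was 0.071 (*Tbr1* +/K228E against WT) and 0.026 (*Tbr1* K228E/K228E against WT), 21 genes were called between the mutant genotypes, and *Slc4a10* there was 0.64 (adjusted p = 0.0496, limma), 1 of the wider list. With the meningeal score, *Ttr* was 0.52, *Aqp1* 0.26, and *Kl* 0.051 between *Tbr1* K228E/K228E and WT embryos, and *Kl* 0.17, *Sostdc1* 0.015, and *Slc4a5* 0.48 between the mutant genotypes. In that fit 1 of the 7 genes passed an unadjusted p of 0.05 between *Tbr1* +/K228E and WT embryos, and the share over all tested genes is not given. In fits of the 2 compared genotypes, 12 genes and 0 of the wider list were called against WT in *Tbr1* K228E/K228E embryos (*Slc4a10* adjusted p = 0.235, limma), and 1 of the wider list between the mutant genotypes (adjusted p = 0.0154, limma).

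The labels do not say whether replicate numbers pair the embryos. Between same-numbered embryos r ranged from -0.232 to 0.506. Differently numbered embryos were not compared in this way, so that pairing was not tested. With the replicate block, 2 genes were called between the mutant genotypes, and 0 of the wider list in *Tbr1* K228E/K228E against WT embryos (*Slc4a10* 0.68, adjusted p = 0.128, limma).

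Without the 2 embryos low in *Ttr*, an alternative added after the data were seen, 1 gene was called between *Tbr1* +/K228E and WT embryos, where *Slc4a5* and *Slc4a10* were both -0.053. Between *Tbr1* K228E/K228E and WT embryos 7 genes and 0 of the wider list were called, and *Ttr* was 0.28. Between the mutant genotypes *Slc4a5* was 0.19.

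Leaving out each embryo in turn, estimates between *Tbr1* K228E/K228E and WT embryos ranged from -1.41 to 1.24 for *Ttr*, -1.08 to 0.41 for *Aqp1*, -0.55 to 0.63 for *Clic6*, -0.45 to 0.72 for *Folr1*, -0.22 to 0.10 for *Kl*, -0.26 to 0.78 for *Slc4a5*, and -0.16 to 0.32 for *Sostdc1*. Those between *Tbr1* +/K228E and WT embryos ranged from -0.16 to 0.15 for *Kl*, -0.053 to 0.98 for *Slc4a5*, and -0.053 to 0.13 for *Slc4a10*, and those between the mutant genotypes from -0.23 to 0.14 for *Kl* and -0.50 to 0.19 for *Slc4a5*. Genes called ranged from 12 to 21 in *Tbr1* K228E/K228E against WT embryos and from 6 to 8 between the mutant genotypes, and the wider list had 0 to 1 in each. The correlation of *Kl* with *Ttr* ranged from 0.168 to 0.569, and the SD ranged from 1.62 to 2.80 for *Ttr* and from 0.88 to 1.24 for *Slc4a5*. The causes were not tested. Depth is unknown and limits mainly genes with low values.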
